A study of Macaca mulatta with 8 samples.

Results

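Extracellular nucleotides act on microglia through a short chain of proteins, and the transcripts of that chain were described here in primary rhesus macaque microglia with uLPS and with uLPS and MRS2578. The members were 10 genes listed by symbol, and the rows carrying those symbols were taken from count files of 35432 genes. PANX1, ENTPD1, ENTPD4, NT5E, ADA and ADORA2B had 1 row each, which makes 6 members, while the other 4 symbols, ENTPD6, SLC29A1, ADORA2A and ADORA3, were carried by no row and were skipped. All 6 passed the filter on low counts.

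Pannexin channels such as PANX1 let ATP and UTP leave the cell. ENTPD1 (CD39) at the cell surface removes phosphates from nucleoside tri- and diphosphates, and NT5E (CD73) turns the AMP that is left into adenosine. Adenosine acts on receptors such as ADORA2B, or is deaminated to inosine by ADA. ENTPD4 is an intracellular relative of ENTPD1 that hydrolyses nucleotides such as UDP in the Golgi and lysosomal membranes. UDP is the ligand of P2RY6, the receptor that MRS2578 antagonizes, whereas adenosine acts on receptors other than P2RY6.

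The cells came from white matter of 4 adult macaques, R07110, R12016, R02046 and R14143, aged 13, 9, 19 and 6 years, and were kept in culture for 8 days with macrophage colony-stimulating factor. Cells of each animal received 10 µg/mL uLPS, ultrapure lipopolysaccharide that acts on TLR4, for 16 h, either alone or after 1 h with 5 µM MRS2578. All groups therefore carried uLPS, and cells without uLPS or with MRS2578 alone were not analysed here. Each animal gave 1 library per condition, 8 in all, with total counts between 9231109 and 32790348.

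The labelled conditions of R02046 conflicted with the study's own gene table. Each of the 8 columns of that table was proportional to the counts of 1 library, and the columns matched the labels in 3 donors, but the 2 columns of R02046 carried the opposite conditions. The main results follow the labels, and the fold change of each member is also given with the libraries of R02046 exchanged and without this donor. Summed microglia markers were between 3950 and 5153 CPM in all libraries, with CSF1R at 1007 CPM or more, but TMEM119 did not exceed 0.316 CPM and CX3CR1 did not exceed 2.21 CPM. The 6 lymphocyte markers summed to at most 0.518 CPM. CPM values are counts relative to library size (CPM), scaled by edgeR's TMM method, and in bulk RNA fewer cells of a type and less RNA per cell cannot be told apart.

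ADA was the member with the most RNA per length. Divided by the length of the RefSeq exons in Mmul_10, its mean with uLPS was 199.6 CPM per kb, against 52.4 for PANX1, 18.7 for ENTPD4, 2.02 for ADORA2B and 1.56 for NT5E. Over the 8 libraries ADA lay between 86.9 and 337 CPM per kb and PANX1 between 37.8 and 68.4, so that the members at the top of this order did not overlap. ENTPD4, between 14.4 and 30.0 CPM per kb, lay below every PANX1 value. ADORA2B and NT5E, the receptor and the enzyme that makes its ligand, overlapped, with 0.888 to 3.66 and 0.279 to 3.69 CPM per kb. ENTPD1 is not placed in this order, because its exon length was not found in the annotation used here.

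The ADA gene lies on the minus strand at chr10:79851161-79883957 and PANX1 on the plus strand at chr14:87372311-87432075. The 250 bases before their outermost annotated starts are shown because ADA was the most abundant member per length and one of the members called with R02046 exchanged, and PANX1 was next in abundance and was not called. The windows are chr10:79883958-79884207, minus strand, and chr14:87372061-87372310, plus strand, both from the RefSeq Mmul_10 genome and written 5′ to 3′, with GGGCGG, a GC box, and GGAAA, the core that NFAT factors bind, in capitals on either strand.
ADA: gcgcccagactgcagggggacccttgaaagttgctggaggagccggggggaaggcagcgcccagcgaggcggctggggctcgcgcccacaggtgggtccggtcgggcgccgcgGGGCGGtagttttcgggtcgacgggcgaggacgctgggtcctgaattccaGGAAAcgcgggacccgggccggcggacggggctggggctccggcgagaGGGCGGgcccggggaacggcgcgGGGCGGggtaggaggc
PANX1: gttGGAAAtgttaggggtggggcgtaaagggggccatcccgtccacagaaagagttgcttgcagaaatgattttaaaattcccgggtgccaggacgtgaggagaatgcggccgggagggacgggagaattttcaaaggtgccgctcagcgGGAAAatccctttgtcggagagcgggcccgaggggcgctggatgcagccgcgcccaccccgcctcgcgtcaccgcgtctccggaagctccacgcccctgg
The ADA window held GGGCGG 3 times and GGAAA 1 time, and the PANX1 window held GGGCGG 0 times and GGAAA 2 times. Matches were counted on both strands, and the motifs share no overlapping match here. Of 20782 such windows of protein-coding genes, 43.7% held GGGCGG and 53.0% held GGAAA. The ADA window had 76.4% G and C bases and that of PANX1 62.4%, beside a median of 57.2%. These matches are letters in a window and were not tested as binding sites.

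**Figure D1:**
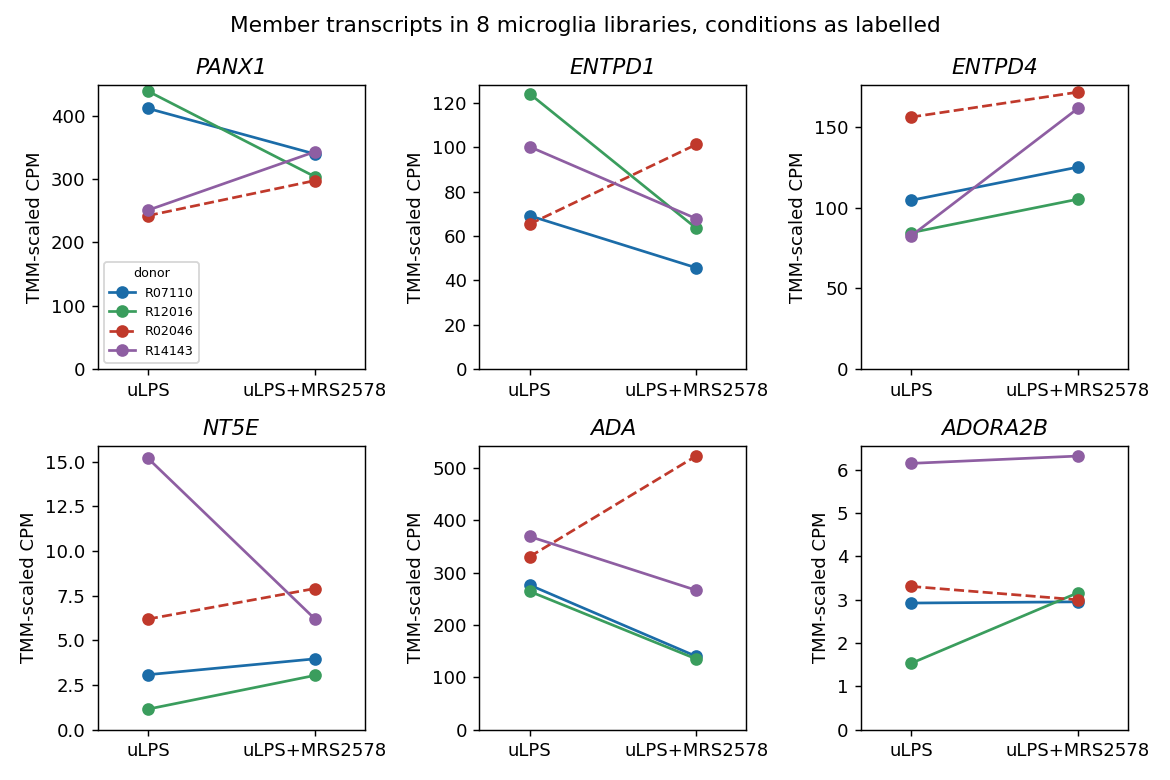
TMM-scaled CPM (y axes, from 0) of the 6 members with uLPS and with uLPS+MRS2578 (x axes), 1 line per donor, with R02046 dashed and conditions as labelled. ENTPD1 and ADA were lower with MRS2578 along 3 lines and higher along that of R02046, whereas ENTPD4 was higher with MRS2578 along all 4.

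With the deposited labels, edgeR's quasi-likelihood test called 0 of 12131 genes (0%) in either direction, while 624 genes had an unadjusted p under 0.05, and DESeq2 called 1 and edgeR's likelihood ratio test 5. None of the 6 members was called by any of these tests. With the libraries of R02046 exchanged, ADA and ENTPD1 were lower with MRS2578 at an adjusted p under 0.05, where 0.519% of all genes were called lower. Without R02046, edgeR called 0 of 12295 genes (0%), and 1670 had an unadjusted p under 0.05. Where no gene changes, a share of about 0.05 of the genes tested is expected to have such a p.

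ADA, the enzyme that removes adenosine, was measured in R07110 at 277 CPM without and 140.0 CPM with MRS2578, in R12016 at 264 and 135 CPM, and in R14143 at 369 and 266 CPM. In R02046 the library labelled uLPS had 330.4 CPM and that labelled uLPS and MRS2578 had 523 CPM. The libraries with MRS2578 thus had 50.6%, 51.1% and 72.1% of the ADA level of their uLPS partners in the first 3 animals and 158% in R02046. As labelled, the groups overlapped, at 310.1 ± 48.7 CPM with uLPS and 266 ± 182 CPM with MRS2578 (SD, n = 4). The log2 fold change was -0.45 with an SE of 0.27 (adjusted p = 0.878, edgeR's quasi-likelihood test). With R02046 exchanged it was -0.77 with an SE of 0.11 (adjusted p = 0.0358, edgeR), lower in 4 of 4 donors, and the groups still overlapped. Without R02046 it was -0.81 with an SE of 0.13 (adjusted p = 0.138, edgeR).

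ENTPD1, the surface enzyme that starts the breakdown of ATP, followed the same donors. It was 69.1 and 45.6 CPM in R07110, 124 and 63.4 CPM in R12016 and 100.3 and 67.8 CPM in R14143, without and with MRS2578, while the library labelled with MRS2578 was the higher one in R02046, at 101 against 65.3 CPM. The mean levels as labelled were 89.7 ± 27.8 and 69.5 ± 23.2 CPM (SD, n = 4), and the groups overlapped. The log2 fold change was -0.39 with an SE of 0.25 as labelled (adjusted p = 0.881, edgeR), -0.69 with an SE of 0.10 when exchanged (adjusted p = 0.0358, edgeR) and -0.71 with an SE of 0.12 without R02046 (adjusted p = 0.140, edgeR). When exchanged, every library with MRS2578 lay below every uLPS library, which held for 1.56% of all genes tested.

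Both genes were lower with MRS2578 in the 3 donors whose labels were not in conflict, a direction that 19.8% of all genes showed in those donors. With R02046 exchanged, both were lower in all 4 donors, as were 13.2% of all genes. ADA and ENTPD1 both belong to the list of genes that the study selected on these samples, so that list is not independent evidence of their direction. The exchange makes R02046 move with the other donors for these genes, and which assignment is right was not tested. ADA counts were 2.13 times those of ENTPD1 in both libraries of R12016 and 5.06 and 5.17 times in those of R02046, so the genes moved by nearly the same factor within these donors. In R07110 the ratio was 4.00 with uLPS and 3.07 with MRS2578, and in R14143 it was 3.68 and 3.93.

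The call of ADA and ENTPD1 with R02046 exchanged was also made by the likelihood ratio test, where 3.47% of all genes were called lower, and by DESeq2, where 3.52% were. It was also made by 3 other estimations of the quasi-likelihood test that were chosen after seeing the data, where 0.289%, 0.528% and 0.354% of all genes were called lower. It was lost without R07110, at an adjusted p of 0.303 for ADA and 0.300 for ENTPD1, and without R12016, at 0.133 for both (edgeR). It was kept without R14143, at 0.00722 for ADA and 0.0144 for ENTPD1 (edgeR), a fit that called 918 of 12128 genes in either direction. The log2 fold changes stayed close to those with all donors, at -0.70 for ADA and -0.72 for ENTPD1 without R07110 and at -0.70 and -0.59 without R12016. Without the donor as a block it was lost too, at 0.87 for ADA and 0.83 for ENTPD1 (edgeR). The summed microglia markers moved in the same direction as ADA and ENTPD1 in each donor, from 4889 to 4226 CPM in R07110, from 5153 to 4345 CPM in R12016 and from 4298 to 3950 CPM in R14143, and from 4397 to 5052 CPM in R02046 as labelled. Not every marker of the list did so. C1QB, SPI1 and CD68 were lower with MRS2578 in 3 donors as labelled and in 4 when exchanged. CSF1R, PTPRC, TREM2 and P2RY12 were lower in 2 and 3 donors, ITGAM in 1 and 2, and AIF1 in 3 and 2. CX3CR1 and TMEM119, which were not tested, were lower in 0 and 1. Of the 5 astrocyte markers 3 were tested, and SLC1A2, a glutamate transporter, was also called when exchanged. Its log2 fold change was then -1.22 with an SE of 0.15 (adjusted p = 0.0328, edgeR), lower in 4 of 4 donors, as were 13.2% of all genes. As labelled it had -0.58 with an SE of 0.46 (adjusted p = 0.901, edgeR) and was lower in 3 donors. The other tested astrocyte markers were not called when exchanged. GFAP had 0.15 with an SE of 0.23 (adjusted p = 0.810, edgeR). SLC1A3 had -0.19 with an SE of 0.11 (adjusted p = 0.431, edgeR). AQP4 and ALDH1L1 did not exceed 2.62 and 1.08 CPM. The summed astrocyte markers were 105.8 and 106.2 CPM in R07110, 188 and 167 CPM in R12016, 68.8 and 99.3 CPM in R02046 and 134 and 99.5 CPM in R14143, without and with MRS2578. The summed endothelial markers were 155 and 157 CPM, 239 and 291 CPM, 209 and 255 CPM, and 192 and 177 CPM in the same order of donors. Nearly all of that sum was PECAM1 and VWF. The other markers of the list, CLDN5 and CDH5, did not exceed 0.162 and 0.202 CPM and were not tested. The part of these cell types in the ADA and ENTPD1 values was not tested.

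**Figure D2:**
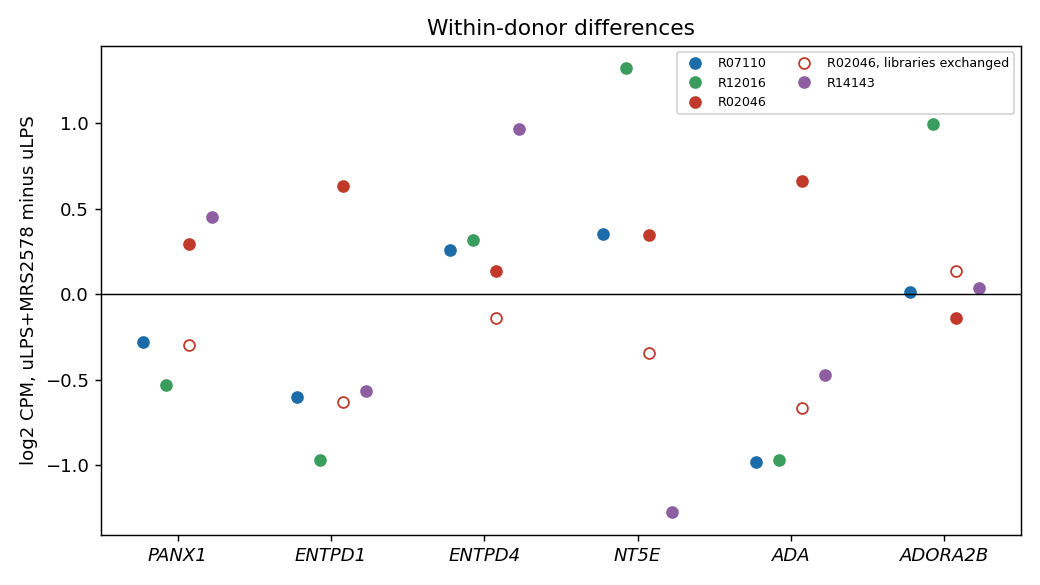
Difference in log2 CPM between uLPS+MRS2578 and uLPS (y axis) for each member (x axis), 1 filled point per donor, with an open point for R02046 when its libraries are exchanged. For ADA and ENTPD1 the filled R02046 point lies above 0 and the other 3 donors below it. The open point lies below 0 with them.

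ENTPD4, the intracellular relative, was higher with MRS2578 in 4 of 4 donors as labelled, a direction found in 6.43% of all genes. It was measured at 105 and 125 CPM in R07110, 84.6 and 105 CPM in R12016, 156 and 172 CPM in R02046 and 82.6 and 162 CPM in R14143, with uLPS and with MRS2578. The difference was largest in R14143, with a ratio of 1.96, and the other ratios lay between 1.1 and 1.25. The groups overlapped and the gene was not called, with a log2 fold change of 0.42 and an SE of 0.15 (adjusted p = 0.878, edgeR). With R02046 exchanged, the value was 0.35 with an SE of 0.16 (adjusted p = 0.328, edgeR), and R02046 was then lower with MRS2578. Without R02046 it was 0.51 with an SE of 0.16 (adjusted p = 0.279, edgeR). Leaving out R14143 brought it to 0.23 as labelled and to 0.14 when exchanged. ENTPD4 lies on the minus strand at chr8:23669835-23698839.

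PANX1, the release channel, had the highest mean CPM of the members over all libraries, although ADA had more counts in both libraries of R02046 and in the uLPS library of R14143. Its CPM with uLPS and with MRS2578 was 412 and 339.7 in R07110 and 439 and 304 in R12016, lower with MRS2578, but 242 and 298 in R02046 and 251 and 343 in R14143, higher with MRS2578. The log2 fold change was -0.01 with an SE of 0.18 as labelled (adjusted p = 0.993, edgeR) and -0.16 with an SE of 0.15 when exchanged (adjusted p = 0.649, edgeR). Without R02046 it was -0.12 with an SE of 0.20 (adjusted p = 0.840, edgeR). The means were 336 ± 104 CPM with uLPS and 321 ± 23.7 CPM with MRS2578 as labelled, and 349.7 ± 90.0 and 307 ± 46.8 CPM when exchanged (SD, n = 4).

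NT5E, the enzyme that makes adenosine, varied 13.2-fold between libraries. It was measured at 3.08 and 3.96 CPM in R07110, 1.15 and 3.04 CPM in R12016, 6.19 and 7.90 CPM in R02046 and 15.2 and 6.21 CPM in R14143, with uLPS and with MRS2578. The lowest of these values rested on 18 counts, in the uLPS library of R12016, and the highest on 299. The log2 fold change was 0.06 with an SE of 0.40 (adjusted p = 0.991, edgeR), and its sign turned when R02046 was exchanged, to -0.21 with an SE of 0.37 (adjusted p = 0.826, edgeR), and without R02046, to -0.12 with an SE of 0.48 (adjusted p = 0.938, edgeR). The sum of 6 markers of mural cells and fibroblasts, led by COL1A1 and COL1A2, ran in nearly the same order over the libraries. It was lowest in the uLPS library of R12016, at 80.8 CPM, and highest in that of R14143, at 987 CPM. Of the 8 libraries, 6 had the same rank in both measures and the largest gap was 1 rank. In 4 of 4 donors both moved in the same direction. Libraries of the same donor are not independent points, and how many other genes rank this closely with the sum was not counted. Within the list, RGS5 did not exceed 0.146 CPM, PDGFRB did not exceed 5.13 CPM and LUM did not exceed 4.48 CPM. The single markers did not all move with NT5E. As labelled, NT5E, COL1A1, COL1A2 and DCN were lower with MRS2578 in 1 donor, but PDGFRB in 3 and LUM in 2. When exchanged, NT5E, COL1A1, COL1A2, DCN and PDGFRB were lower in 2 donors and LUM in 1. The part of mural cells and fibroblasts in the NT5E values was not tested. NT5E lies on the minus strand at chr4:87753568-87799244.

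**Figure D3:**
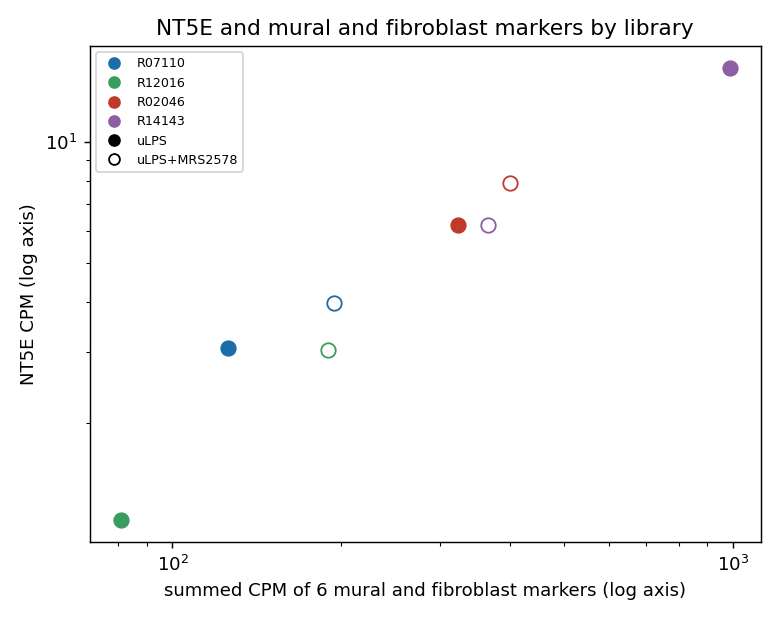
NT5E CPM (y axis, log) against the summed CPM of 6 mural and fibroblast markers (x axis, log), 1 point per library, coloured by donor, filled for uLPS and open for uLPS+MRS2578. The points run from the uLPS library of R12016, at 80.8 and 1.15 CPM, to that of R14143, at 987 and 15.2 CPM.

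ADORA2B, the receptor that adenosine engages at high concentration, was low in all libraries, with 24 to 121 counts. It was measured at 2.92 and 2.95 CPM in R07110, 1.53 and 3.16 CPM in R12016, 3.31 and 3.00 CPM in R02046 and 6.15 and 6.32 CPM in R14143, with uLPS and with MRS2578. R14143 was above the other donors in both conditions. The log2 fold change was 0.20 with an SE of 0.25 (adjusted p = 0.929, edgeR), and 0.23 with an SE of 0.23 when exchanged (adjusted p = 0.678, edgeR). Without R02046 it was 0.26 with an SE of 0.27 (adjusted p = 0.732, edgeR). When exchanged, ADORA2B was higher in 4 of 4 donors, as were 10.6% of all genes, although the values in R07110 were 2.92 and 2.95 CPM. ADORA2B lies on the minus strand at chr16:16421779-16452743.

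**Figure D4:**
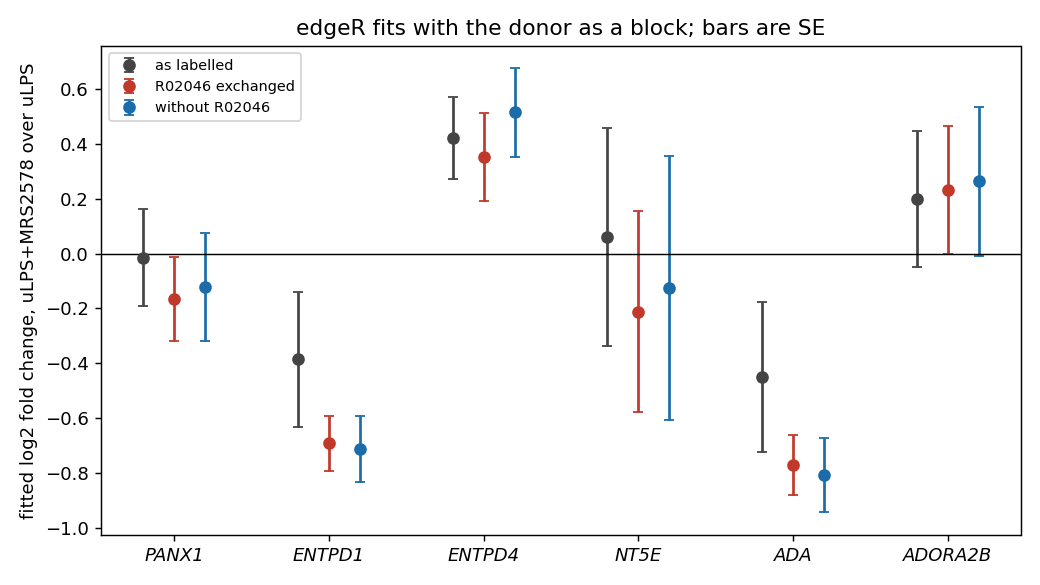
Fitted log2 fold change of uLPS+MRS2578 over uLPS (y axis) for each member (x axis), with SE as bars, as labelled, with R02046 exchanged and without R02046. ADA and ENTPD1 lie below 0 in all 3 fits, and the bars of NT5E cross 0 in each.

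The missing receptors have neighbours in the files. A row named SPECC1L, which the study's gene table also names ADORA2A, had 105 to 249.8 CPM, and the gene lies next to ADORA2A on chromosome 10 in the annotation, without overlap. A row named TMIGD3, whose span on chromosome 1 contains ADORA3 on the same strand, had 4.83 to 23.9 CPM. The log2 fold change of SPECC1L was -0.31 with an SE of 0.21 as labelled (adjusted p = 0.883, edgeR). When exchanged it was -0.56 with an SE of 0.098 (adjusted p = 0.0559, edgeR). That of TMIGD3 was 0.54 with an SE of 0.33 as labelled (adjusted p = 0.878, edgeR). When exchanged it was 0.91 with an SE of 0.15 (adjusted p = 0.0524, edgeR). Neither row was counted as a member, and whether they hold reads of the receptors was not tested.

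P2RY6, the target of the antagonist, lay between 49.5 and 109.9 CPM, and its log2 fold change was -0.03 with an SE of 0.13 as labelled (adjusted p = 0.986, edgeR) and -0.14 with an SE of 0.11 when exchanged (adjusted p = 0.570, edgeR). MRS2578 blocks the receptor protein, so its transcript is no check of the labels.

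Other genes of the same steps were described from 3 lists. Of the list of nucleotide release, 10 of 12 were tested, and 0 were called under either assignment. Its genes with the highest mean CPM, not corrected for length, were the volume-regulated channel subunits LRRC8D and LRRC8C. LRRC8D had a log2 fold change of -0.19 and an SE of 0.11 as labelled and -0.26 and an SE of 0.081 when exchanged. LRRC8C had 0.03 and 0.07 and an SE of 0.11 and 0.10. Of the list of nucleotide-degrading surface enzymes, 8 of 14 were tested, and 0 were called as labelled and 1 when exchanged, beside the 0.519% of all genes called lower. That gene was CD38, which consumes NAD.
CD38 had 149.8 and 61.6 CPM in R07110, 275 and 76.5 CPM in R12016, 40.4 and 92.6 CPM in R02046 and 135 and 88.1 CPM in R14143, with uLPS and with MRS2578. It was thus lower with MRS2578 in the same 3 donors as ADA and ENTPD1, and higher in R02046 as labelled. Its log2 fold change was -0.69 with an SE of 0.46 as labelled (adjusted p = 0.882, edgeR) and -1.24 with an SE of 0.18 when exchanged (adjusted p = 0.0358, edgeR). ENPP4, next to CD38 in mean CPM on this list, had -0.14 with an SE of 0.16 as labelled and -0.23 with an SE of 0.14 when exchanged. Of the list of adenosine handling, 13 of 20 were tested, and 0 were called under either assignment. AMPD3, an AMP deaminase and at 328 CPM its most counted gene, had -0.17 with an SE of 0.28 as labelled and -0.63 with an SE of 0.14 when exchanged (adjusted p = 0.0944, edgeR). PNP, which acts after ADA on inosine, had 0.18 with an SE of 0.17 as labelled and 0.35 with an SE of 0.11 when exchanged. The median log2 fold changes of the 3 lists, in this order, were 0.16, -0.10 and 0.07 as labelled and 0.18, -0.18 and 0.09 when exchanged, beside -0.01 and 0.00 over all genes tested.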

How the data were processed

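RNA was measured in 8 libraries, with 4 donors in each of 2 conditions taken from the labels. The authors deposited whole-number counts of reads per Ensembl gene, without normalization. The study's methods name fastp 0.20, STAR 2.5.4, SAMtools 1.10 and HTSeq 0.11.0 with Mmul_10, and only unique reads within exons, while the submitters' processing notes name Trimmomatic 0.30, TopHat2 2.0.14, SAMtools 1.3 and HTSeq 0.6.1p1. The strand setting and annotation release are not given in the sources used here, so overlapping genes have uncertain counts. The study's gene table was used to compare columns with libraries, and its fold changes and p-values were not used.

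Genes were filtered in R 4.3.3 by filterByExpr (minimum count 10), scaled by TMM, and tested over all genes in edgeR 4.0.16 by a quasi-likelihood test that blocked on donor, with Benjamini-Hochberg adjustment and a threshold of 0.05. SE is implied by the test statistic. DESeq2 1.42.0 was an alternative. Libraries of 1 donor come from 1 animal, and their deviations from the condition means correlated at 0.602, 0.552, 0.458 and 0.562. No libraries were duplicates (chi-square per degree of freedom at least 19.7). Log2 CPM used a prior count of 2.

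The estimation within the quasi-likelihood test was not named in the planned design. The default of this edgeR version, its earlier estimation, was run first and called 39 genes with R02046 exchanged. After that count was seen, 16 settings of library size, dispersion, robustness and estimation were compared, in search of the setting behind a count of 75 known from earlier results of these data. The current estimation, which gave 75, was then made the main one to keep the processing of those results. The other estimations are given as alternatives.

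On simulated counts with 200 genes changed 3-fold, the test recovered 199 and called 213 of 12053, and with no change it called 0 of 12050. These counts had no difference between donors and the same dispersion for every gene. They therefore cannot show how often smaller changes, or changes that vary by donor, would be called in the real libraries. The members and lists were chosen with earlier results of these data known. The genes named are the members found, P2RY6, the 2 genes of each list with the highest mean CPM and any gene of those 3 lists called. SLC1A2 and the other microglia, astrocyte, endothelial, mural and fibroblast markers given singly were named after their values were seen. Positions, exon lengths and promoters come from RefSeq Mmul_10, which holds 5 of the 6 members by symbol.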

Additional observations from a re-analysis of the deposited data

Results flagged for a closer look

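ADORA2B in the library of R14143 with uLPS and MRS2578 stood apart from the other 3 donors of that condition, at 6.32 CPM against 3.16 CPM for the nearest. The gap was 0.938 of the range of the 4 values, above Dixon's critical value. It was the only one of 14 groups of 4 so marked, and chance marks about 1 group in 20. The same donor was also highest for ADORA2B with uLPS alone, at 6.15 CPM.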

How the results depend on the processing

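As labelled, 0 genes were called, and DESeq2 called 1 and the likelihood ratio test 5, none of them a member, while the exchange of R02046 gave 75. With each donor left out in turn, 0 to 0 genes were called as labelled. With R02046 exchanged, 75 genes became 583 with DESeq2, 616 with the likelihood ratio test and 32 with at least 10 counts in every library, and 0 to 918 with a donor left out (0 without R07110, 5 without R12016 and 918 without R14143). The estimations added after seeing the data gave 39 with the earlier estimation, 76 with the robust one and 46 with the earlier robust one. Over all 16 estimation settings the count lay between 39 and 76, and ADA and ENTPD1 were called in 16 of 16, with adjusted p between 0.0358 and 0.0482 (edgeR). Because the current estimation was chosen after the first count was seen, the count of 75 depends on that choice. Without the donor as a block (no pairing), 0 genes were called under either assignment. The log2 fold changes of ADA and ENTPD1 with no block were -0.72 and -0.71.

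Over the 13 fits with R02046 exchanged, ADA and ENTPD1 were lower in all and called in 10. Signs turned in some fits for PANX1, NT5E and ADORA2B, members that were not called, and for P2RY6, which is not a member. ENTPD4 was not called either and was higher in all fits under both assignments. With a donor left out, PANX1 as labelled ran from -0.18 to 0.16 (0.07 without R07110 and 0.16 without R12016), NT5E from -0.26 to 0.63, ADORA2B from -0.0061 (without R12016) to 0.28 and P2RY6 from -0.11 to 0.10, and NT5E when exchanged from -0.49 to 0.31. NT5E as labelled was -0.013 with no filter, -0.29 with no replicate block, -0.02 without R07110, -0.26 without R12016, -0.12 without R02046 and -0.21 when exchanged, and when exchanged it was 0.31 without R14143. P2RY6 as labelled was 0.013 with no replicate block and 0.10 without R07110. The cause was not tested. NT5E, with 18 to 299 counts, and ADORA2B, with 24 to 121, are the members with the fewest counts.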
